A study of Mus musculus with 4 samples.

Results

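Trem2, Cx3cr1, Ccr2 and Nrp1 encode surface receptors of the monocyte and macrophage lineage, and their transcripts were followed in progenitors of the mouse fetal liver. The genes were chosen by name, and all 4 were among the 3624 genes of the deposited count table, which holds 9960 cells. Cells of the phenotype Lin-Sca-cKit+Cd34+ had been sorted from C57Bl/6J fetal livers at E14.5 and profiled on the 10x Genomics Chromium platform. The enhancer-deleted libraries, A and B, came from embryos of genotype Gata2-77-/-, which lack on both alleles the -77 enhancer, a distal element upstream of Gata2. The wild-type libraries, F and I, came from embryos of the same strain and stage, so that n = 2 libraries for each genotype. The deletion is in the germ line and is therefore present in every cell of the embryo, and the gate keeps immature cells, so mature monocytes were not the population sampled.

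TREM2 binds lipids and apolipoproteins and signals through the adaptor DAP12 (Tyrobp) in macrophages, microglia and osteoclasts. CCR2 is the receptor for the chemokine CCL2, through which classical monocytes leave the bone marrow and enter tissues, and CX3CR1 is the receptor for fractalkine, carried by patrolling monocytes, microglia and the progenitors shared by macrophages and dendritic cells. NRP1 is a co-receptor for semaphorins and for VEGF in neurons, endothelium, plasmacytoid dendritic cells and some macrophages. IRF8 is the transcription factor that directs myeloid progenitors to the monocyte and dendritic fates and away from the neutrophil fate, so the receptors are described below by the Irf8 level of the cell. GATA2 sustains stem and progenitor cells and the mast, basophil, megakaryocyte and early erythroid lineages.

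Trem2 lies on chromosome 17 (48346401 to 48354147, + strand, GRCm38, GENCODE release M21), and Nrp1 on chromosome 8 (128358604 to 128503363, + strand). Cx3cr1 (119901616 to 120069879, - strand) and Ccr2 (124101950 to 124113557, + strand) both lie on chromosome 9. The sequence before the RefSeq start was searched for all 4 receptors, since all rose with Irf8 and IRF8 acts with PU.1 (Spi1) at myeloid promoters. It is shown for Trem2 and Nrp1. All 4 genes were in the RefSeq promoter table (GRCm38.p6). The windows of Cx3cr1 and Ccr2 overlap annotated exons and are not shown. The Trem2 window is chr17:48346151-48346400 (+ strand), and the Nrp1 window is chr8:128358823-128359072 (+ strand), which lies within the GENCODE gene but overlaps no exon. Each is 250 bases long and runs 5′ to 3′ up to the start, and capitals mark the PU.1 core GAGGAA or its reverse complement.
Trem2: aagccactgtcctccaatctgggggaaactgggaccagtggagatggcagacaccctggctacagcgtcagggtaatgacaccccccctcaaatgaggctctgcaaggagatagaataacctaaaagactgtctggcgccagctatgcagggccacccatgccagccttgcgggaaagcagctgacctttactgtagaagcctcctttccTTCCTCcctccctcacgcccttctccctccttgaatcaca
Nrp1: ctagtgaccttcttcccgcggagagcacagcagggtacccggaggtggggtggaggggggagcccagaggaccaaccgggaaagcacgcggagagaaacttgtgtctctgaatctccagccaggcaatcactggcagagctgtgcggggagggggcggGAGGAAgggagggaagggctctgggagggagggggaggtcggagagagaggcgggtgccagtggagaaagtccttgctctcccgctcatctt
The core was found once in the Trem2 window, on the - strand with its first base at -40, and once in the Nrp1 window, on the + strand at -92. It was found in neither the Cx3cr1 nor the Ccr2 window, while 23.3% of 32851 promoters of the same length hold it on either strand. The GATA motif AGATAA was in the Ccr2 window alone, on the - strand at -97, against 9.99% of all promoters. These are letter matches, searched on both strands, and binding or a part in the rise with Irf8 was not tested.

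Library A held 2235 cells with a median of 7492 UMIs (unique molecular identifiers, each standing for 1 captured transcript), and library B 2745 cells with a median of 7087. Library F held 3042 cells with a median of 12826.5 UMIs, and library I 1938 cells with a median of 17437.5, so depth moved with genotype. Levels are CPM of the panel, the usual CPM scaling with the UMIs that a library had over the 3624 genes as its total, and they are compared between libraries and cell classes for 1 gene at a time. Gata2 stood at 7.48 and 6.73 CPM in libraries A and B, against 26.3 and 23.2 CPM in F and I. The labels give the genotype and no Gata2 level, and the libraries also differed in their mix of cells. Neutrophil-like cells made up 2.61% ± 1.63 of cells in enhancer-deleted libraries and 29.0% ± 7.93 in the wild type, and monocyte/macrophage-like cells 29.3% ± 2.59 and 18.6% ± 3.02 (SD, n = 2 each). Shares of cells with a UMI were read after each cell had been thinned at random to 4346 UMIs, which left out 398 and 457 shallower cells of libraries A and B, and 111 and 29 of F and I.

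Over all cells, Trem2 rose in the enhancer-deleted libraries, and the other receptors stood higher there in every library without passing the test. Trem2 was at 24.4 CPM in library A (411 UMIs) and 20.1 in B (400 UMIs), against 8.50 in F (341 UMIs) and 9.70 in I (329 UMIs). Its means were 22.2 ± 3.06 and 9.10 ± 0.849 CPM (SD, n = 2 each), a log2 fold change of 1.24 (SE 0.20, edgeR adjusted p = 0.0236). Cx3cr1 was at 30.6 and 24.1 CPM in A and B, against 13.9 and 16.9 in F and I. Its log2 fold change was 0.78 (SE 0.19, edgeR adjusted p = 0.0688). The genotypes did not overlap for these receptors, and the wild-type libraries lay closer together than the enhancer-deleted ones. Non-overlap says little with 2 libraries against 2, and how many of all genes had it was not counted. Spi1, with a log2 fold change of 0.02, did not overlap either, at 381 and 409 CPM in A and B, against 376 and 377 in F and I. Most measured genes of the gene lists described below lay apart as well, some higher and some lower.

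Ccr2, the CCL2 receptor, was at 47.3 and 36.7 CPM in A and B, against 24.1 and 25.2 in F and I. Its log2 fold change was 0.72 (SE 0.16, edgeR adjusted p = 0.0546). Nrp1 was at 16.0 and 14.2 CPM in A and B, against 7.53 and 7.08 in F and I, a log2 fold change of 1.00 (SE 0.23, edgeR adjusted p = 0.0635). Thus 1 of 4 receptors was called higher and 0 lower at an adjusted p under 0.05, where 2.76% of the 3622 genes tested were called higher. All 4 had an unadjusted p under 0.05, as had 888 of the 3622 genes, and all 4 were called by the DESeq2 Wald test (adjusted p from 3.05e-09 to 2.86e-04), which called 8.48% of the genes higher. Without library A the adjusted p of Trem2 was 0.178, and without library B it was 0.111, at log2 fold changes of 1.05 and 1.41.

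**Figure D1:**
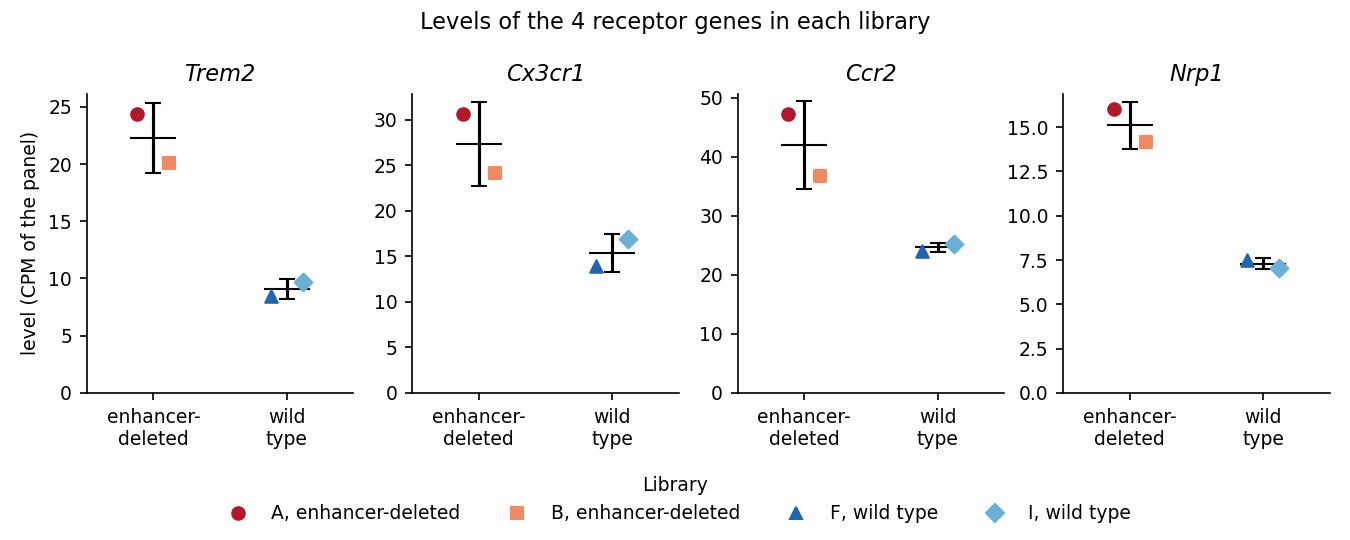
Level of each receptor gene (y axis, CPM of the panel, linear from 0) in the enhancer-deleted libraries A and B and the wild-type libraries F and I; the dash and bar are the mean and SD of 2 libraries. For every receptor both enhancer-deleted libraries lie above both wild-type libraries, as for Trem2 at 24.4 and 20.1 against 8.50 and 9.70 CPM. How many of all genes lie apart in this way was not counted.

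These sums hold different mixtures of cells, and in sums fewer cells of a type cannot be told apart from less RNA in each. With neutrophil-like, erythroid-like and cluster 2 cells left out, which are few in the enhancer-deleted libraries (cluster 2 is led by Car1 and Gata1), the log2 fold changes were smaller. They were 0.70 for Trem2 (edgeR adjusted p = 0.246), 0.41 for Cx3cr1 (0.461), 0.18 for Ccr2 (0.725) and 0.38 for Nrp1 (0.550), and 3 genes in all were then called. The summed markers of neutrophils (10 of 14 measured) were 1176 and 862 CPM in A and B, against 9143 and 5487 in F and I. Those of monocytes and macrophages (10 of 15 measured) overlapped between genotypes, at 748 and 642 CPM in A and B, against 694 and 614 in F and I. That sum mixes opposite moves. Irf8 was higher in A and B (255 and 257, against 153 and 141 in F and I), and Ly6c2 was lower (78.6 and 40.0, against 228 and 150). Of 12 mature liver macrophage markers 1 was measured, Hmox1, at 1.96 and 2.86 CPM in A and B, against 3.76 and 2.33 in F and I. Of 10 endothelial markers, relevant to Nrp1, 3 were measured (Stab2, Lyve1 and Egfl7), with a sum of 228 and 267 CPM in A and B, against 172 and 162 in F and I. Their part in the receptor levels was not tested.

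At equal depth, each receptor was detected in a larger share of cells in both enhancer-deleted libraries. Trem2 had a UMI in 8.27% and 6.73% of cells of A and B, against 2.93% and 3.14% of F and I. Cx3cr1 had one in 11.9% and 8.78%, against 4.81% and 6.08%. The corresponding shares for Ccr2 were 15.6% and 12.7% in A and B, against 7.68% and 6.60% in F and I. For Nrp1 they were 6.48% and 5.73% in A and B, against 2.42% and 2.30% in F and I. None of these shares overlapped between genotypes, but with 2 libraries against 2 the exact two-sided permutation p cannot go below 0.333, which is the value each reached.

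Without thinning, the shares lay closer, since the wild-type cells are deeper. They were 11.3% and 9.98% for Trem2 in A and B, against 6.74% and 9.03% in F and I, and for Cx3cr1 (16.6% and 13.8% against 12.6% and 16.4%) and Ccr2 (21.3% and 17.3% against 15.6% and 18.5%) the libraries then overlapped. A cell with a UMI held few of them: the mean over such cells ran from 1.11 to 1.60 UMIs over receptors and libraries after thinning. Wild-type erythroid-like cells, which should lack these receptors, gave 1 of 85 cells with Trem2 and 0 of 85 with Cx3cr1, Ccr2 or Nrp1, where 0 of 85 allows up to 3.53%. They had a median of 10660 UMIs before thinning, against 19032 in wild-type monocyte/macrophage-like cells. Wild-type neutrophil-like cells gave 0.679% for Trem2, 2.51% for Cx3cr1, 1.56% for Ccr2 and 0 of 1473 for Nrp1 (up to 0.204%). These limits and all binomial intervals cover counting error only.

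All 4 receptors rose with the Irf8 level of the cell. Cells were put in class 0, 1 to 2 or 3 or more by their Irf8 UMIs after thinning. Class 3 or more held 16.3% and 14.1% of cells in A and B, against 7.61% and 6.76% in F and I, and class 0 held 44.6% and 46.2%, against 69.9% and 70.0%. Monocyte/macrophage-like cells made up 68.0%, 59.8%, 64.1% and 56.6% of class 3 or more in A, B, F and I. They made up 12.8%, 11.1%, 5.03% and 10.6% of class 0. The classes thus differ in cell type as well as in Irf8, and a rise with Irf8 within a cell type was not tested. Trem2 stood at 48.0, 30.4, 30.8 and 31.1 CPM in class 3 or more of libraries A, B, F and I, and at 9.73, 8.29, 2.90 and 3.97 CPM in class 0. Ccr2 stood at 82.3, 74.6, 59.6 and 60.4 CPM in class 3 or more of A, B, F and I, and at 23.0, 14.48, 9.65 and 10.5 CPM in class 0. In every library and for every receptor, class 3 or more lay above class 0.

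With the library as a block, the log2 fold change of class 3 or more over class 0 was 2.62 for Trem2 (SE 0.26, edgeR adjusted p = 3.25e-04) and 2.32 for Ccr2 (SE 0.13, edgeR adjusted p = 3.03e-05). It was 2.55 for Nrp1 (SE 0.23, edgeR adjusted p = 2.22e-04) and 1.67 for Cx3cr1 (SE 0.16, edgeR adjusted p = 2.82e-04). All 4 receptors were thus called higher, where 12.2% of 3617 genes tested were called higher. Nrp1 stood at 32.3, 20.5, 20.3 and 18.6 CPM in class 3 or more of A, B, F and I, and at 5.22, 5.14, 3.16 and 2.32 CPM in class 0. Cx3cr1, which had the smallest fold change, stood at 52.4, 45.0, 30.3 and 28.5 CPM in class 3 or more, and at 14.2, 13.9, 8.27 and 11.3 CPM in class 0. Class 1 to 2 was between the outer classes for every receptor and library, except that in library B Nrp1 was at 20.8 CPM there against 20.5 in class 3 or more. The classes rest on the UMIs drawn, and class 0 still held Irf8 in the rest, at 57.7 ± 0.181 CPM in enhancer-deleted and 42.4 ± 6.75 CPM in wild-type libraries (SD, n = 2 each).

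**Figure D2:**
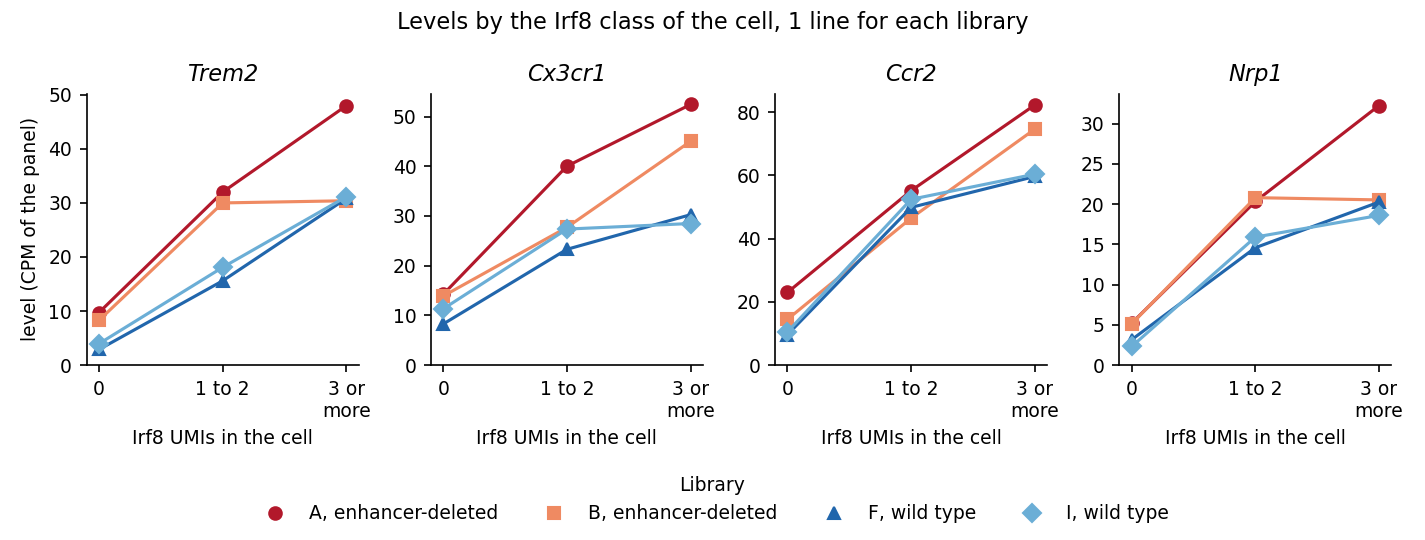
Level of each receptor gene (y axis, CPM of the panel, linear from 0) in cells with 0, 1 to 2 and 3 or more Irf8 UMIs at 4346 UMIs a cell (x axis), with 1 line for each library. All lines end above where they start, and for Trem2 the genotypes lie apart in class 0 (9.73 and 8.29 against 2.90 and 3.97 CPM) and overlap in class 3 or more.

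Between genotypes within an Irf8 class, Trem2 was called higher in class 0 and in no other class, and class 0 held different cells in the genotypes. Neutrophil-like cells, in which Trem2 stood at 1.67 and 0.919 CPM in F and I, made up 4.64% and 2.08% of class 0 in A and B, against 42.7% and 29.8% in F and I. In class 0 the Trem2 log2 fold change was 1.30 (SE 0.33, edgeR adjusted p = 0.0477), and the other receptors were not called there (0.43 for Cx3cr1, 0.79 for Ccr2 and 0.81 for Nrp1, edgeR adjusted p from 0.121 to 0.284). So 1 of 4 was called, where 6.22% of genes were called higher in that class. The call of Trem2 was lost without library A (edgeR adjusted p = 0.309), without B (0.259), without F (0.0565), without the filter on low counts (0.0705) and at the median depth (0.431). With neutrophil-like, erythroid-like and cluster 2 cells left out of class 0, its log2 fold change was 0.52 (SE 0.24, edgeR adjusted p = 0.415), and 20 genes in all were called there, against 611. In class 1 to 2 Trem2 stood at 32.0 and 30.001 CPM in A and B, against 15.6 and 18.1 in F and I, with a log2 fold change of 0.87 that was not called (SE 0.17, edgeR adjusted p = 0.114). Ccr2 overlapped between genotypes there, at 55.2 and 46.5 CPM in A and B, against 49.9 and 52.4 in F and I. In class 1 to 2, 0.0279% of genes were called higher, and 0 of the 4 receptors.

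In class 3 or more, Cx3cr1 came nearest to the threshold, with a log2 fold change of 0.75 (SE 0.17, edgeR adjusted p = 0.0598), and 0 of 4 receptors were called, where 0.761% of genes were called higher. Irf8 itself stood at 715 ± 33.7 CPM in enhancer-deleted and 582 ± 64.6 CPM in wild-type cells of this class (SD, n = 2 each). For Trem2 the genotype difference was smaller in class 3 or more than in class 0, by 0.96 on the log2 scale (interaction -0.96, SE 0.31, edgeR adjusted p = 0.0348), where 8.79% of 3617 genes were called lower and 22.8% in either direction. This interaction was not called for Cx3cr1 (0.30, SE 0.24, edgeR adjusted p = 0.404), Ccr2 (-0.36, SE 0.19, 0.204) or Nrp1 (-0.36, SE 0.39, 0.562). That of Trem2 was lost without library B (edgeR adjusted p = 0.248), without library F (0.168), by the DESeq2 Wald test (0.200) and at the median depth, where it was -0.33 (edgeR adjusted p = 0.800). With neutrophil-like, erythroid-like and cluster 2 cells left out, which made up 5.98% and 2.46% of class 0 in A and B, against 60.9% and 44.5% in F and I, it was -0.21 (SE 0.26, edgeR adjusted p = 0.685), and that of Cx3cr1 was then called (0.68, SE 0.22, edgeR adjusted p = 0.0213). All 4 receptors stayed higher in class 3 or more than in class 0 without those cells, by 1.503 to 2.21 on the log2 scale (edgeR adjusted p from 3.23e-08 to 7.68e-06).

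The receptors were found in the same cells more often than in cells at large. At equal depth, 2 or more of the 4 had a UMI in 9.64% and 7.34% of cells of A and B, against 3.10% and 3.04% of F and I, and without thinning in 15.3% and 12.3%, against 10.2% and 12.3%. Cells with all 4 numbered 7 and 5 in A and B, and 5 and 0 in F and I. In the sum of the 4 libraries Nrp1 was in 18.4% of Ccr2+ and 2.41% of other cells, a ratio of 7.62, and in 19.2% of Trem2+ and 3.27% of other cells, a ratio of 5.89, but in library A these ratios were 4.19 and 4.25. Read the other way, Ccr2 had a UMI in 43.7% and 49.6% of Nrp1+ cells of A and B, against 50.7% and 40.9% of F and I. Among cells without an Nrp1 UMI, it was 13.7% and 10.5% in A and B, against 6.61% and 5.79% in F and I. The share of Ccr2 among Nrp1+ cells thus overlapped between genotypes, and its share among the rest did not.

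Trem2 had a UMI in 20.9% and 19.2% of Ccr2+ cells of A and B, against 15.1% and 15.1% of F and I, and in 5.94% and 4.91% of the other cells of A and B, against 1.92% and 2.30% of F and I. In the sum of the enhancer-deleted libraries Cx3cr1 was detected in 21.6% of Trem2+ and 9.24% of other cells, a ratio of 2.33, and in the wild type in 15.8% and 4.99%, a ratio of 3.16. Within monocyte/macrophage-like cells the ratios were smaller: Ccr2 had a UMI in 51.5% of Nrp1+ and 29.1% of other enhancer-deleted cells of that class, and in 54.5% and 20.1% of the wild-type ones. For some pairs little excess was left there. Cx3cr1 was in 21.9% of Trem2+ (interval 17.0% to 27.5%) and 17.8% of other enhancer-deleted cells of the class. In its wild-type cells these shares were 16.1% (9.81% to 24.2%) and 10.9%, so both intervals hold the share among other cells. In Irf8 class 0 the ratios were larger, with Ccr2+ cells holding Nrp1 in 16.3% and other cells in 1.03% in the enhancer-deleted libraries, against 9.82% and 0.520% in the wild type. In class 3 or more these shares were 17.9% and 8.68% in the enhancer-deleted libraries, against 13.4% and 4.56% in the wild type. Ccr2 there was in 34.8% of Cx3cr1+ and 24.0% of other enhancer-deleted cells, but in 20.5% and 18.8% of wild-type ones. In library B, Nrp1 was in 7.89% of Trem2+ and 8.42% of other cells of that class. Cells pooled over libraries are not replicates, and no test was made of these ratios.

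**Figure D3:**
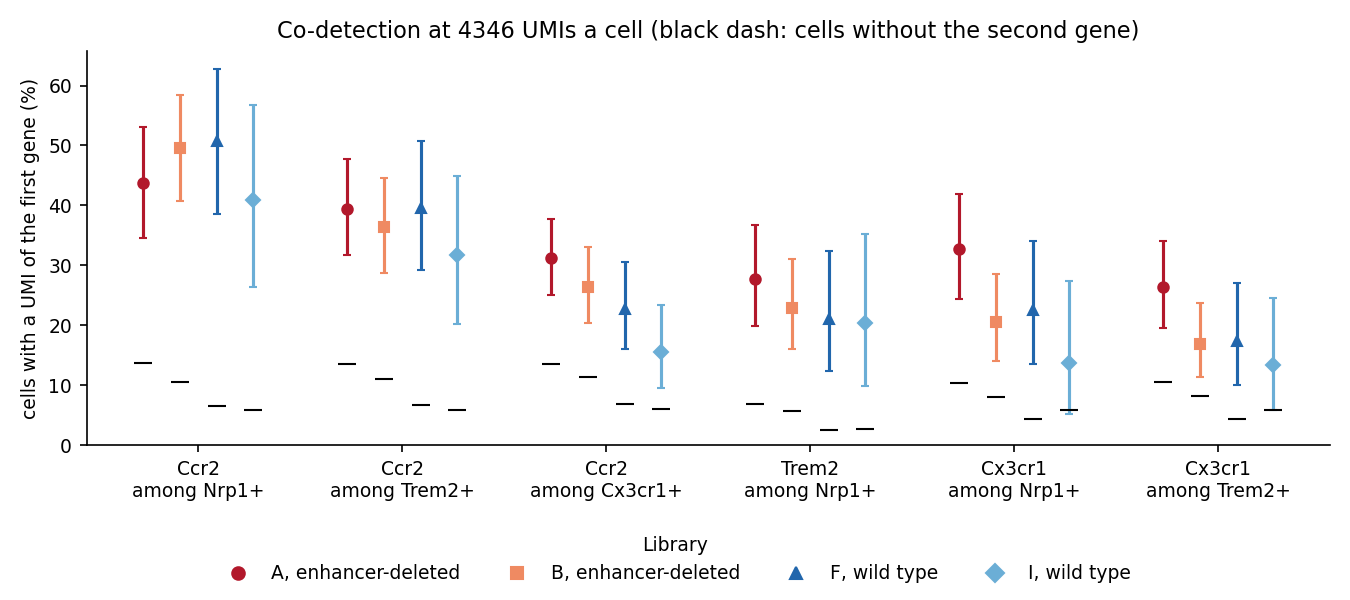
Share of cells (y axis, %, at 4346 UMIs a cell) with a UMI of the first gene among cells with a UMI of the second, for the 6 pairs of receptors in the enhancer-deleted libraries A and B and the wild-type libraries F and I; bars are exact (Clopper-Pearson) 95% intervals and black dashes the share among cells without the second gene. Every point lies above its dash, and the interval of library I reaches the dash where Cx3cr1 is read among Nrp1+ cells.

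By cell class, Trem2, Ccr2 and Nrp1 were mainly in the monocyte/macrophage-like cells, and Cx3cr1 was spread more widely. That class, clusters 6, 9 and 10, held 86.4% and 82.5% of the Trem2 UMIs of A and B, against 82.1% and 83.3% of F and I. For Cx3cr1 it held 64.7% and 56.0% in A and B, against 43.1% and 43.7% in F and I. Trem2 averaged 46.4 CPM over the 4 libraries in this class, against 0.661 in HSPC-like (stem and progenitor) cells, while Cx3cr1 averaged 41.0 and 7.33. The clusters were made without the 4 receptors, but from the same cells, so no class is tested against the others. At the lower Leiden resolution (0.6) the named class held only 966 cells. A cluster of 1287 cells led by Nrp1 and Ccr2 then met too few markers for a name. The shares and levels here hold for the clustering at resolution 1.0. Cx3cr1 was also at 37.8 CPM in cluster 7 and 25.5 in cluster 8, neither of which met the markers of a lineage.

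The 3 clusters of the class differed in which receptor stood high. Cluster 6, led by Ppfia4, Nrp1, Id3, Id2 and Ccr2, had the highest Ccr2, at 169 and 178 CPM in A and B, against 162 and 211 in F and I. It also had the highest Nrp1, at 64.3 and 63.7 in A and B, against 64.8 and 57.3 in F and I, and the highest Cx3cr1, at 85.3 and 76.7 in A and B, against 59.5 and 80.3 in F and I. For these 3 receptors the genotypes overlapped in that cluster, and no library of clusters 9 or 10 reached these levels. Cluster 6 also met Flt3 of the HSPC markers and, unlike clusters 9 and 10, did not meet F13a1. Of 9 dendritic markers 2 were measured (Cd74 and Bst2), so no cluster could take a dendritic name. Trem2 averaged 54.7 CPM in cluster 10, 44.8 in cluster 9 and 44.2 in cluster 6, and its order did not exceed the spread between libraries. In cluster 6 Trem2 overlapped between genotypes too, at 47.7 ± 5.24 CPM in enhancer-deleted and 40.8 ± 18.8 CPM in wild-type libraries (SD, n = 2 each). In cluster 9, led by Fcgr1, Trem2 was at 66.0 and 59.9 CPM in A and B, against 32.4 and 20.7 in F and I, and Cx3cr1 at 39.2 and 30.4, against 18.7 and 19.1.

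**Figure D4:**
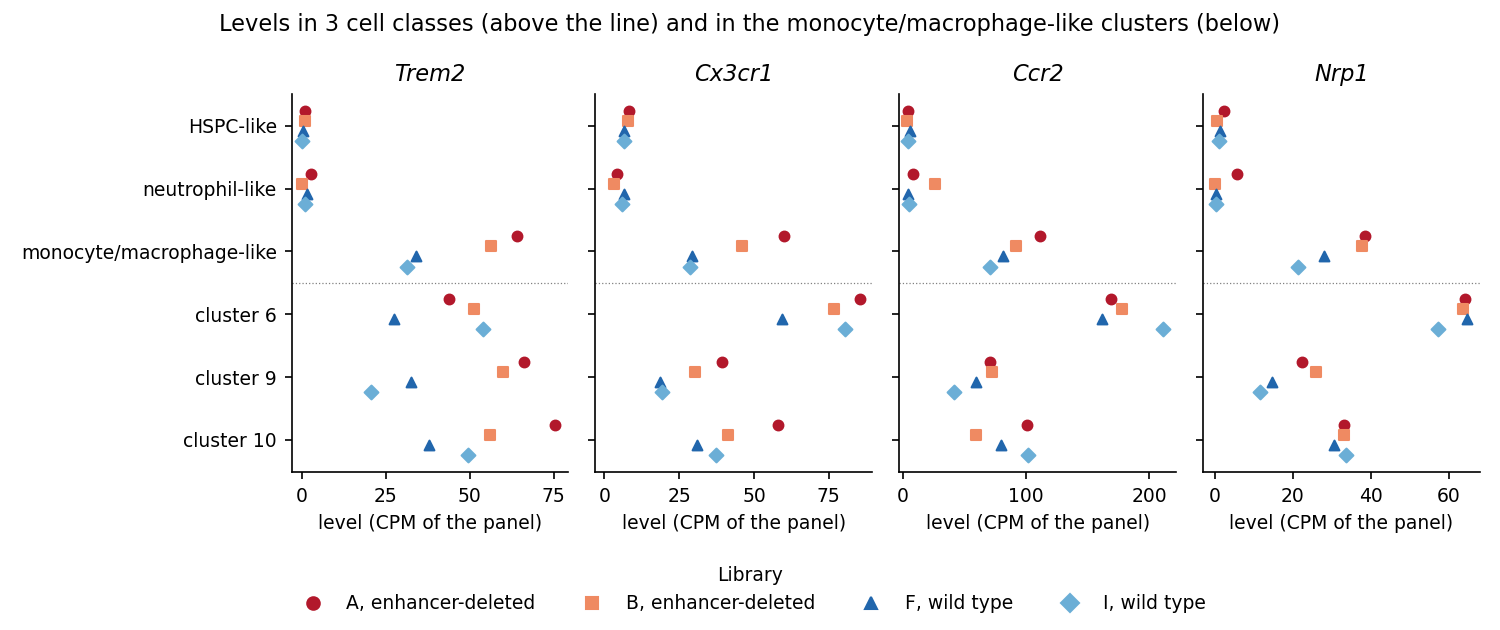
Level of each receptor gene (x axis, CPM of the panel) in 3 cell classes and in the clusters of the monocyte/macrophage-like class, with 1 point for each library. Ccr2 and Nrp1 are highest in cluster 6, where the genotypes overlap, and Trem2 in cluster 9 is higher in A and B (66.0 and 59.9) than in F and I (32.4 and 20.7).

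Within monocyte/macrophage-like cells, Trem2 was again called higher in the enhancer-deleted libraries. It stood at 64.1 and 56.2 CPM in A and B, against 34.0 and 31.5 in F and I, a log2 fold change of 0.92 (SE 0.13, edgeR adjusted p = 0.0306). Cx3cr1 stood at 60.1 and 45.8 CPM in A and B, against 29.2 and 28.7 in F and I, with 0.91 (SE 0.17, edgeR adjusted p = 0.0592). The log2 fold change was 0.46 for Ccr2 (SE 0.14, edgeR adjusted p = 0.144) and 0.68 for Nrp1 (SE 0.17, edgeR adjusted p = 0.115). So 1 of 4 receptors was called, where 0.447% of 3581 genes were called higher.

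The mix of clusters in this class moved with genotype: cluster 6 held 267 of 695 and 264 of 753 cells in A and B, against 103 of 501 and 48 of 402 in F and I. In cluster 9 alone Trem2 had a log2 fold change of 1.28 (SE 0.23, edgeR adjusted p = 0.0929), with 0 genes called by edgeR and 416 at an unadjusted p under 0.05 (DESeq2 was not run there). In cluster 10 alone it had 0.61 (SE 0.20, edgeR adjusted p = 0.233), and Ccr2 had -0.15. Without library A the adjusted p of Trem2 in the class was 0.0915, and without library I it was 0.163. In HSPC-like cells Trem2 and Nrp1 were too low to test, and 0 of the other 2 receptors were called, Cx3cr1 at 0.23 (SE 0.22, edgeR adjusted p = 0.651) and Ccr2 at -0.38 (SE 0.30, edgeR adjusted p = 0.582), where 1.31% of genes were called in either direction.

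**Figure D5:**
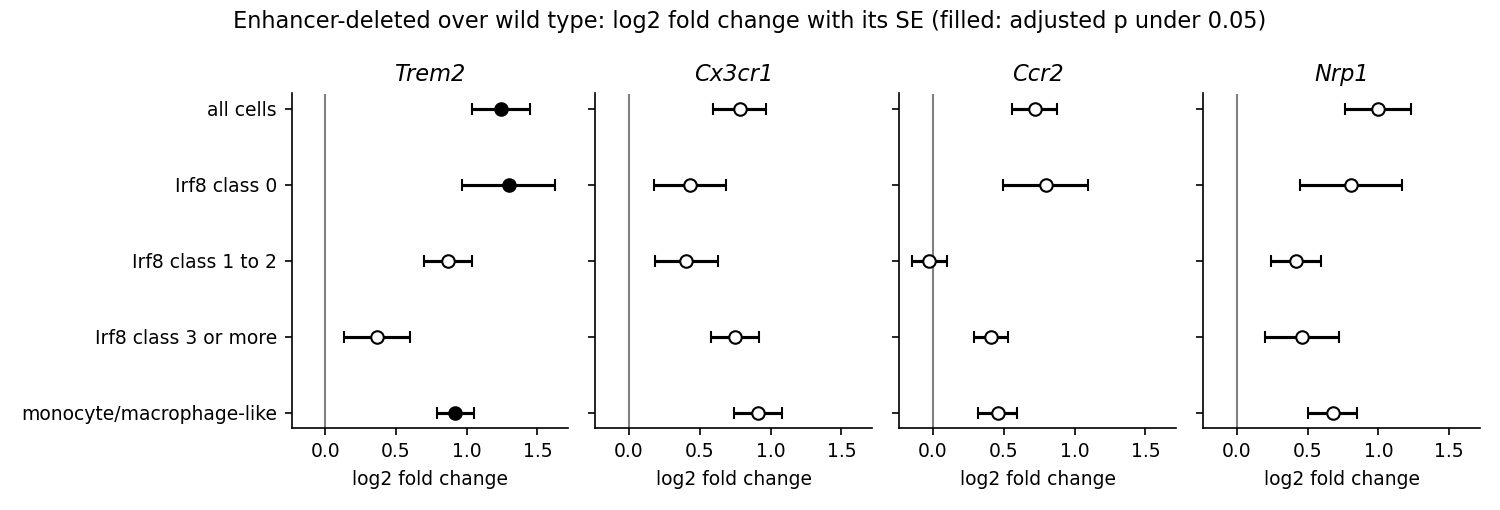
Log2 fold change of enhancer-deleted over wild-type libraries (x axis, points with their SE) for each receptor over all cells, in the 3 Irf8 classes and in monocyte/macrophage-like cells; filled points have an edgeR adjusted p under 0.05. Trem2 is filled over all cells (1.24), in Irf8 class 0 (1.30) and in monocyte/macrophage-like cells (0.92), and no other receptor is filled.

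Genes that followed the receptors were ranked by Pearson's r of log2(CPM + 1) over 12 points, the 3 Irf8 classes of 4 libraries, among 3553 genes that reached 20 CPM in a point. The points share the Irf8 axis and the libraries, so r is high for many genes. Trem2 was followed most closely by Rgs2 (r = 0.986), Laptm5 (0.980) and Ms4a4c (0.978), and Cx3cr1 by Tmem229b (0.977), Ebp (0.974) and Dock10 (0.973). Ccr2 was followed by Ms4a4c (0.989), Zeb2os (0.986) and Ifitm6 (0.984), and Nrp1 by BC005537 (0.984), Csf1r (0.983) and Ms4a4c (0.982). Ms4a4c, a member of the tetraspan MS4A family, stood at 12.2 and 9.79 CPM in A and B, against 5.66 and 6.04 in F and I. Between the receptors, r ran from 0.953 for Cx3cr1 with Nrp1 to 0.975 for Trem2 with Nrp1.

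Of the genes around TREM2 and DAP12, 9 of 15 were measured, and 0 rose and 3 fell over all cells in the enhancer-deleted libraries, where 2.76% of all genes rose and 6.1% fell. Those that fell were Trem3, another receptor that signals through DAP12, and the apolipoproteins Apoe and Apoc1. Trem3 was at 28.1 and 27.8 CPM in A and B, against 75.6 and 61.3 in F and I (log2 fold change -1.35, SE 0.13, edgeR adjusted p = 0.00784). Apoe was at 141 and 97.4 CPM in A and B, against 439 and 366 in F and I (-1.80, edgeR adjusted p = 0.0115), and Apoc1 had -1.23 (edgeR adjusted p = 0.0421). The call of Trem3 was lost without library A (edgeR adjusted p = 0.0592), that of Apoc1 without F (0.0744) or I (0.0678), and all 3 without neutrophil-like, erythroid-like and cluster 2 cells (0.112 to 0.474). Tyrobp, the adaptor itself, overlapped between genotypes at 654 and 551 CPM in A and B, against 677 and 566 in F and I. The list had a median log2 fold change of -0.19, against 0.00 over all genes.

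Of the chemokine receptors, ligands and signalling genes, 7 of 26 were measured, and 1 rose and 0 fell, where 2.76% of all genes rose and 6.1% fell. The gene that rose was Rgs2, a regulator of G protein signalling, at 89.1 and 83.5 CPM in A and B, against 64.1 and 67.0 in F and I (0.35, SE 0.07, edgeR adjusted p = 0.0492). Its call was lost without library A (edgeR adjusted p = 0.159), F (0.115) or I (0.108), and without neutrophil-like, erythroid-like and cluster 2 cells (0.18, edgeR adjusted p = 0.465). Of the neuropilin, semaphorin, plexin and VEGF genes 2 of 21 were measured, and neither was called: Tgfb1 had -0.24 (edgeR adjusted p = 0.0957) and Gipc1 0.00 (0.975). The medians of these lists were 0.12 and -0.12.

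Of the monocyte and dendritic progenitor genes, 20 of 25 were measured, and 4 rose and 1 fell over all cells, where 2.76% of all genes rose and 6.1% fell. Irf8 was at 255 and 257 CPM in A and B, against 153 and 141 in F and I (0.75, edgeR adjusted p = 0.00980). Csf1r, the receptor for M-CSF, was at 50.2 and 45.1, against 29.6 and 30.8 (0.61, edgeR adjusted p = 0.0245). Ms4a6b and Ms4a6c rose by 0.71 and 0.51 on the log2 scale, and Csf2ra, the GM-CSF receptor alpha chain, fell by 0.73 (edgeR adjusted p = 0.0185). Each of these 5 calls was lost with a library left out: Irf8 without A (edgeR adjusted p = 0.0592), Csf1r without A, F or I (0.118, 0.0547 and 0.0537), Ms4a6b without A, B or I (0.189, 0.128 and 0.0584), Ms4a6c without A, F or I (0.0868, 0.0907 and 0.135) and Csf2ra without A or B (0.0872 and 0.113). Without neutrophil-like, erythroid-like and cluster 2 cells none was called, with log2 fold changes of 0.28 for Irf8, 0.22 for Csf1r, 0.40 for Ms4a6b, 0.048 for Ms4a6c and -0.34 for Csf2ra (edgeR adjusted p from 0.333 to 0.912). Ly6c2, a monocyte surface protein gene, was at 78.6 and 40.0 CPM in A and B, against 228 and 150 in F and I, and was not called (-1.72, edgeR adjusted p = 0.0544). The list's median was 0.13. Of its 20 genes 18, Irf8 among them by construction of the classes, were called higher in Irf8 class 3 or more than in class 0, where 12.2% of 3617 genes were. The list's median in that contrast was 1.83, against -0.01 over all genes.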

How the data were processed

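The deposited table holds whole-number counts (UMIs) of 3624 genes in 9960 cells, 4980 for each genotype, with no normalization. How the authors chose genes and cells is not given in the sources used here. Per the submitters' processing notes they used Cell Ranger 2.0.2, Seurat 2.3.4 and mm10. The table has no header, so its columns were matched in turn to the deposited grouping file, which gives genotype and library letter. Letters are tied to no sample number. If the libraries are not of separate embryos, p-values measure only the spread between libraries.

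UMIs were summed per library, or per library and class. In R 4.3.3, edgeR 4.0.16 filtered these sums (filterByExpr), scaled them by TMM and gave two-sided quasi-likelihood p-values, adjusted after Benjamini-Hochberg over all genes tested and read at 0.05. Class fits needed 50 cells in each library. Positive log2 fold changes are higher in enhancer-deleted libraries or in higher Irf8 classes. SE is the size of the log2 fold change divided by the square root of its quasi-likelihood F statistic, so it restates the test. The Irf8 contrast keeps the library as a block, and the interaction fits both genotypes in 1 model. Cells were thinned to 4346 UMIs (the 10th percentile). Clustering (scanpy 1.11.5, Leiden resolution 1.0, 1000 variable genes, 30 components, 15 neighbours) left the 4 receptors out. A cluster name needs at least 3 of a lineage's markers at 2-fold or more over other clusters and in 10% of cells. No doublet caller was run, and an alternative left out the 5% of cells with most UMIs. Cell barcodes were not used here, so shared ones were not counted. Exact intervals have a level of 95%, and a count of 0 allows up to 3 counts.

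The receptors, gene lists and tests were chosen with earlier results of these data known. Text names the 4 receptors, Irf8 and Gata2, the 3 most alike genes by r of each receptor, and from each list up to 6 called genes or else the 2 with the smallest p. Tyrobp, Ly6c2 and cluster leaders were named after their values were seen. On simulated data for all cells (3624 genes), 90% of 1.5-fold and 100% of 2-fold changes were recovered, with 8 calls among 3424 unchanged genes. In monocyte/macrophage-like cells (3577 genes), 80% of 1.5-fold changes were recovered, with 9 calls among 3378 unchanged genes. The changed genes were drawn at random from all genes tested. Counts were drawn with the same dispersion for every gene, around means pooled over libraries. Differences in cell mix and in spread between genes were thus not simulated. By UMIs the receptors lie low in the panel, from percentile 1.88 (Nrp1) to 7.20 (Ccr2). Recovery was not measured for genes as low as these. Alternatives were DESeq2 1.42.0 (size factors, Wald test), library totals, no filter, each library left out, another depth, seed, class limit or clustering, a term for Xist, and cells or clusters left out after seeing the data.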

Additional observations from a re-analysis of the deposited data

Results flagged for a closer look

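The genotype difference of Trem2 depended on the Irf8 class: it was smaller in cells with 3 or more Irf8 UMIs than in cells with 0, by an interaction of -0.96 on the log2 scale (SE 0.31, edgeR adjusted p = 0.0348). In class 3 or more Trem2 stood at 48.0 and 30.4 CPM in libraries A and B, against 30.8 and 31.1 in F and I, so library A alone stood above the wild type. In class 0 it stood at 9.73 and 8.29 CPM in A and B, against 2.90 and 3.97 in F and I. Neutrophil-like cells made up 4.64% and 2.08% of class 0 in A and B, against 42.7% and 29.8% in F and I. The interaction was tested in 1 model over both classes, and without neutrophil-like, erythroid-like and cluster 2 cells it was -0.21 (edgeR adjusted p = 0.685). Over 11 alternatives its adjusted p ran from 0.00381 to 0.800, with the same direction in each.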

How the results depend on the processing

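The rise of all 4 receptors with Irf8 kept its direction and its side of the threshold under all 11 alternatives. Values are log2 fold changes unless called counts, and the cause of a change was not tested. No paired analysis was possible because the library letters carry no sample number. For all cells, the DESeq2 Wald test called Cx3cr1 (0.78), Ccr2 (0.72) and Nrp1 (0.99), library totals called them too (0.83, 0.76 and 1.05) while moving the median gene by 0.05, and so did a term for Xist (0.77, 0.71 and 1.00). The Xist term marks each library as holding Xist or not, and with 4 libraries it leaves little from which to estimate the spread. DESeq2 size factors called Ccr2 (0.71) and turned Gipc1 to -0.00019. Ccr2 was also called without the cells with most UMIs (0.81), and Nrp1 after thinning before summing (1.28). Without neutrophil-like, erythroid-like and cluster 2 cells, an alternative chosen after seeing the data, Trem2 lost its call (0.70) and the count of genes called was 3, against 321. The same cells left out of the Irf8 classes, also chosen after seeing the data, ended the class 0 call of Trem2 (0.52), reversed Nrp1 there (-0.097), ended the interaction of Trem2 (-0.21), called that of Cx3cr1 (0.68) and reversed those of Ccr2 (0.28) and Nrp1 (0.48). Genes called then numbered 20 in class 0, 1262 (against 841) for Irf8 and 477 for the interaction.

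In Irf8 class 0 Trem2 lost its call without the filter (1.30) and at the median depth (0.92), and the Wald test called Ccr2 (0.80). In class 1 to 2 the Wald test called Trem2 (0.88). There the median depth reversed Cx3cr1 (-0.24) and Nrp1 (-1.05), and Ccr2 turned to 0.0089 without the cells with most UMIs and to 0.13 with a class of 1 or more. In class 3 or more the median depth reversed Ccr2 (-0.33). The Trem2 interaction was not called by the Wald test (-0.97), at the median depth (-0.33) or with a class of 1 or more (-0.60), which called that of Ccr2 (-0.66), and the median depth reversed that of Cx3cr1 (-0.077). In monocyte/macrophage-like cells Trem2 lost its call at the lower Leiden resolution (0.58), where the class held other cells, 966 in all. It also lost its call in cluster 9 (1.28) and in cluster 10 (0.61), both chosen after seeing the data. The Wald test called Cx3cr1 in monocyte/macrophage-like cells (0.91), and Ccr2 reversed at the lower resolution (-0.10) and in cluster 10 (-0.15).

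Counts of genes called changed by more than 1.5 times. The Wald test gave 734 over all cells, 64 (against 6) in class 1 to 2, 271 (against 824) for the interaction and 103 (against 40) in monocyte/macrophage-like cells. The median depth gave 960 (against 611) in class 0, 85 in class 1 to 2 and 38 (against 82) in class 3 or more. In class 1 to 2 the count was 3 with no filter and 26 without the cells with most UMIs, and a class of 1 or more gave 10. The count in monocyte/macrophage-like cells was 26 with the receptors among the clustering genes, 0 in cluster 9 and 18 in cluster 10.

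With each library left out in turn, Trem2 ran from 1.05 to 1.41 over all cells, from 1.11 to 1.49 in class 0, from -0.037 (without library A) to 0.69 in class 3 or more and from 0.77 to 1.05 in monocyte/macrophage-like cells, and its interaction from -1.20 to -0.75. Ccr2 ran from 0.48 to 0.92 over all cells (called without B) and from -0.18 to 0.14 in class 1 to 2, and Nrp1 from 0.86 to 1.12 over all cells and from 0.47 to 0.91 in monocyte/macrophage-like cells (both called without F). Cx3cr1 ran from 0.60 to 0.89 in class 3 or more (called without F) and from 0.65 to 1.13 in monocyte/macrophage-like cells (called without B), and Gipc1 from -0.058 to 0.056. Counts ran from 66 to 291 over all cells, 296 to 619 in class 0, 0 to 4 in class 1 to 2, 8 to 164 in class 3 or more, 479 to 718 for Irf8, 410 to 833 for the interaction, 10 to 148 in HSPC-like and 10 to 101 in monocyte/macrophage-like cells. Depth limits single cells most: a cell with a receptor UMI usually held 1, and cells under 4346 UMIs, more of them enhancer-deleted, were left out of shares.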
